A study of Mus musculus with 4 samples.

Results

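The genes described here are the aryl hydrocarbon receptor and the genes that answer to it: Ahr, its repressor Ahrr, its partner Arnt, and its targets Tiparp, Cyp1a1, Cyp1b1 and Nqo1. These 7 genes were chosen by name out of 28692 genes in a single-cell RNA-seq table of colon monocytes and macrophages, and each had a row of its own. The cells came from the lamina propria of 4 male C57/Bl6N mice and were sorted as CD11b+ cells that carried Ly6C or CD64. DEP 11 and DEP 13 had been given diesel exhaust particles (DEP) by mouth tube for some 6 months, in gavages of 12 µg in 200 µL of phosphate-buffered saline (PBS) repeated 5 days weekly. PBS 2 and PBS 3 had been given PBS alone. The labels give no age, no allele and no transgene, so all 4 mice stand as wild-type mice, with 2 in each group.

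The aryl hydrocarbon receptor is a transcription factor that waits in the cytosol with heat shock protein 90 and other chaperones until a ligand binds it. Ligands include polycyclic aromatic hydrocarbons, which diesel particles carry, and indoles from diet and from bacterial tryptophan breakdown in the gut. The bound receptor enters the nucleus, pairs with ARNT and binds DNA at the core letters GCGTG. Among the genes it switches on are the monooxygenases Cyp1a1 and Cyp1b1, which oxidise many of its ligands, and the genes of its own brakes, Ahrr and Tiparp.

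The table holds counts of unique molecular identifiers (UMIs), each standing for 1 captured mRNA molecule read at its 3' end. Of 6954 barcodes, 4771 had at least 1000 UMIs, and 266 of these carried lymphoid markers and were set aside. The 4505 barcodes left, called myeloid here, numbered 628 to 1470 per mouse with 3850075 to 9495047 UMIs per mouse. Csf1r was found in 88.7% of them, Fcgr1 (CD64) in 62.7% and Itgam (CD11b) in 40.8%. The 11 colon epithelial markers together ran from 29.0 to 180 CPM per mouse (UMIs of a gene per 1000000 UMIs summed), highest in PBS 3. The 6 neutrophil markers together ran from 32.2 to 42.9 CPM over all myeloid barcodes and from 48.3 to 69.3 CPM in the Ly6c2-high barcodes defined next, with S100a9 at 0 in every mouse. Barcodes were then divided by the monocyte gene Ly6c2 and the macrophage gene C1qa, a complement component, neither of which is a member. Ly6c2-high barcodes (351) had at least 5 Ly6c2 and fewer than 10 C1qa UMIs per 10000, and C1qa-high barcodes (3201) had at least 10 C1qa and fewer than 5 Ly6c2 UMIs per 10000. A further 249 barcodes were high in both and 704 low in both. These are ranges of 2 genes and not cell types: 910 barcodes lay within 1.5 times of the C1qa level and 379 within 1.5 times of the Ly6c2 level. Barcode codes were shared between mice in 36 cases out of 6915 codes, 33 of the myeloid barcodes among them.

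The promoters of 6 members were read from RefSeq (GRCm38.p6) as 300 bases, from 250 before to 50 after the start of the gene as RefSeq places it. For Cyp1a1 that start lies inside the longer extent given for the gene further on, which is that of the GENCODE annotation. The core letters GCGTG, searched on both strands, stood in 5 of these 6 windows and in 32.4% of all 32851 windows of that length. Ahrr and the receptor's classical target Cyp1a1 are shown because one gave UMIs here and the other gave none. The windows of Tiparp and Cyp1b1 follow for the same contrast, both with the core letters on the other strand, where they read CACGC. Capitals mark the core letters, and all 4 are written along the strand of the gene. They are chr13:74292282-74292581 (minus strand) for Ahrr, chr9:57697363-57697662 (plus) for Cyp1a1, chr3:65528197-65528496 (plus) for Tiparp and chr17:79715012-79715311 (minus) for Cyp1b1.
Ahrr: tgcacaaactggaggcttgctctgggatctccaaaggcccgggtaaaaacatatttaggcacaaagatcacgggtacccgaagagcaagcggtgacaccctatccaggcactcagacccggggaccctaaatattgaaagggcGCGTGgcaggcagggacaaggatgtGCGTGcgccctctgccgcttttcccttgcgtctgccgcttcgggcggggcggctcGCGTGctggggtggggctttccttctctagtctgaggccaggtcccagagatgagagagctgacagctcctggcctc
Cyp1a1: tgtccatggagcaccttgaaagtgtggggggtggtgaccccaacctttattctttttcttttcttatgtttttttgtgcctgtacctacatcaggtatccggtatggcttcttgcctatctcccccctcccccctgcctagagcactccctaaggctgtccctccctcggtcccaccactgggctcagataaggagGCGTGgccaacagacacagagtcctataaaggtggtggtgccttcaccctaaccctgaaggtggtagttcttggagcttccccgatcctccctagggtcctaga
Tiparp: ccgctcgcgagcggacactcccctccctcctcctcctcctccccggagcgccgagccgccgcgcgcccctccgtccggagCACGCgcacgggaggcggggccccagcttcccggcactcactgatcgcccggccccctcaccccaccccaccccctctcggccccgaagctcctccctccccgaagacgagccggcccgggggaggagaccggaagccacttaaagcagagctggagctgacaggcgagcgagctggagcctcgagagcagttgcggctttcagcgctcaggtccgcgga
Cyp1b1: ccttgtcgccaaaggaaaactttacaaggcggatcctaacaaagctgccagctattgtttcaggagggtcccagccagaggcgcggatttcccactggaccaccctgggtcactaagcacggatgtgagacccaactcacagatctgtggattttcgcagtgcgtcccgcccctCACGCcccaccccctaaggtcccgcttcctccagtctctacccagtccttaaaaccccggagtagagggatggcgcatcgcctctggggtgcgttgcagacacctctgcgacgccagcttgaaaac

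The Ahrr window held 3 copies, starting 107, 82 and 27 bases before the start of the gene, and the windows of Cyp1a1, Tiparp, Cyp1b1 and Arnt held 1 each. The Nqo1 window held none. The longer letters TNGCGTG, which overlap the core, occurred once in the Ahrr window, in none of the other 5, and in 5.07% of all windows. These matches describe letters in the reference and not binding in these cells.

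UMIs of the receptor gene were found in every mouse. Ahr (chromosome 12, 35497974 to 35535038, minus strand, mm10) gave 1587 UMIs in the 4505 myeloid barcodes, and 1113 of them (24.7%) had at least 1 UMI. Its level was 46.4 CPM in DEP 11 and 62.3 CPM in DEP 13, beside 78.3 CPM in PBS 2 and 34.6 CPM in PBS 3. The highest and the lowest mouse were thus both controls, and both DEP mice lay between them. PBS 2 exceeded PBS 3 by 2.26-fold, with a 95% counting interval of 1.97 to 2.599. Over the 4 mice the coefficient of variation was 34.3%, against 5.33% from counting alone.

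The same order of mice, PBS 2 above DEP 13 above DEP 11 above PBS 3, was seen for Ahr in 3 of the 4 ranges of barcodes. In C1qa-high barcodes the levels were 77.3, 63.1, 47.1 and 33.2 CPM in that order. In Ly6c2-high barcodes they were 91.3, 60.5, 31.7 and 25.3 CPM. The exception was the range high in both, where DEP 13 had 1 UMI and came last. In lymphoid-marked barcodes of the same wells PBS 2 was again highest, at 44.0 CPM, and the other 3 mice ranged from 20.2 to 35.5 CPM. Whether this order belongs to the animals or to their wells cannot be told apart, since each mouse was 1 well.

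**Figure D1:**
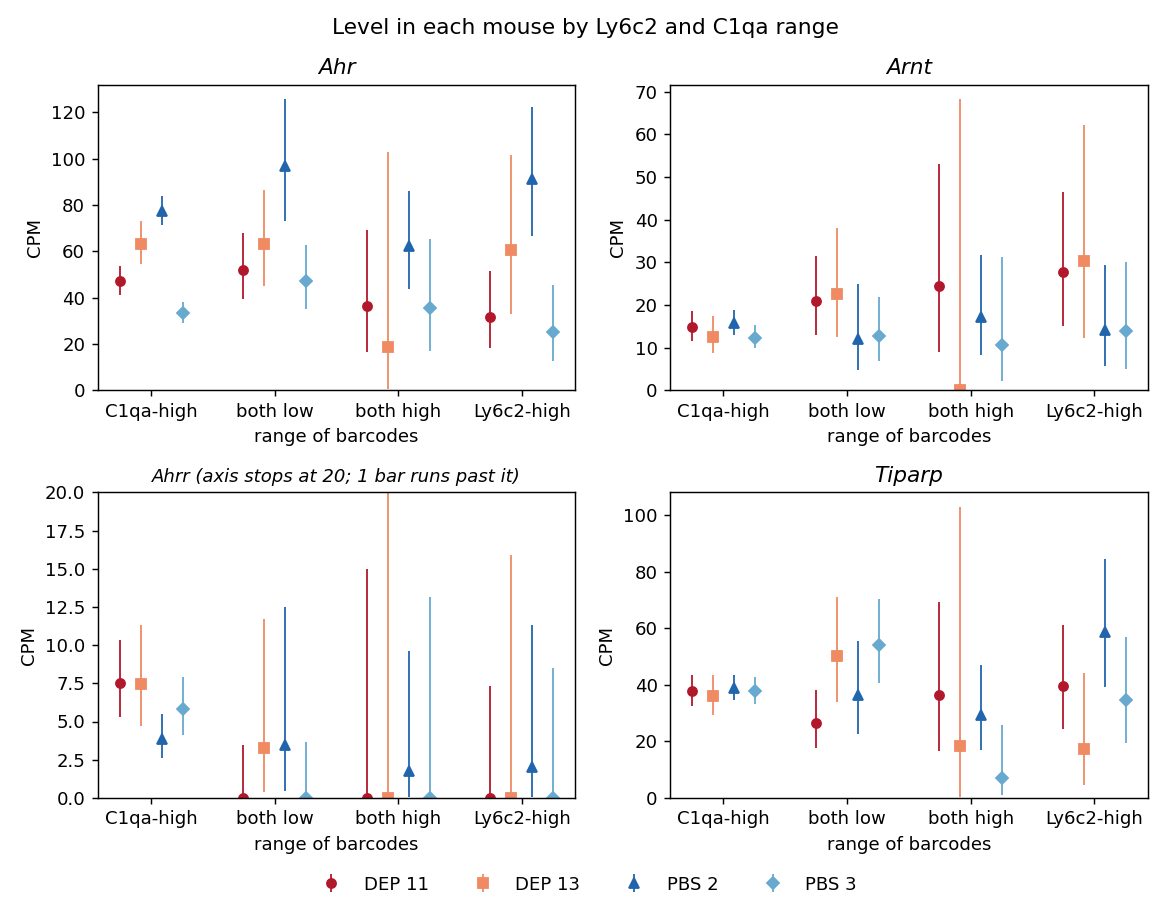
Level (CPM, linear axis) of Ahr, Arnt, Ahrr and Tiparp in each mouse, for the 4 ranges of barcodes on the horizontal axis; points are single mice and bars 95% exact Poisson intervals for counting error. In C1qa-high barcodes Ahr spread from 33.2 to 77.3 CPM while Tiparp stayed between 36.0 and 39.0 CPM, and Ahrr lay between 0 and 3.45 CPM, from 0 to 2 UMIs per mouse, outside the C1qa-high range.

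Ahr was not called between C1qa-high and Ly6c2-high barcodes. The mean level was 55.2 ± 19.1 CPM (SD, n = 4 mice) in C1qa-high and 52.2 ± 30.2 CPM in Ly6c2-high barcodes. The log2 difference, C1qa-high minus Ly6c2-high within mice, was 0.13 (SE 0.18, edgeR quasi-likelihood adjusted p = 0.653). In that fit 1979 of 6955 genes were called (28.5%), and none of the 3 members tested was among them. Along the C1qa content of the barcodes, with the 4 mice pooled, Ahr went from 57.6 CPM below 10 C1qa UMIs per 10000 to 49.6 CPM at 60 and more. Along Ly6c2 it went from 54.6 CPM with none to 47.2 CPM at 10 and more. These pooled values mix mice that differ in Ahr level and enter the levels in unlike shares, so they do not give the change within a mouse.

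The share of barcodes with an Ahr UMI was higher in C1qa-high than in Ly6c2-high barcodes in 4 of 4 mice, at 27.1 ± 9.31% in C1qa-high barcodes and a difference of 7.06 ± 3.83 percentage points (SD of the within-mouse differences, n = 4). After each barcode was thinned to 1000 UMIs the shares were 5.63 ± 1.90% and 5.87 ± 3.24% (n = 4, exact sign-flip permutation p = 0.875, two-sided, smallest possible 0.125). The median depth was 5897 to 7800 UMIs in C1qa-high and 4510 to 5640 in Ly6c2-high barcodes. In lymphoid-marked barcodes, with median depths of 7325 to 9156 UMIs, 21.4% had an Ahr UMI and 4.16% did after thinning.

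Ahr was also found at a higher level in barcodes too small to count as cells. Under 500 UMIs it reached 178 to 296 CPM, from 11 to 36 UMIs per mouse, and from 3000 to below 10000 UMIs it was 33.0 to 77.3 CPM. The same small barcodes had 21.4 to 27.7% of their UMIs in mitochondrial genes, against 1.74 to 2.03% in the larger ones, and 82734 to 118033 CPM of the nuclear RNA Malat1 against 21188 to 26897 CPM. The part of these differences in the Ahr level was not tested. Tiparp ran the same way, at 48.7 to 107 CPM under 500 UMIs and 35.9 to 39.9 CPM from 3000 to below 10000.

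**Figure D2:**
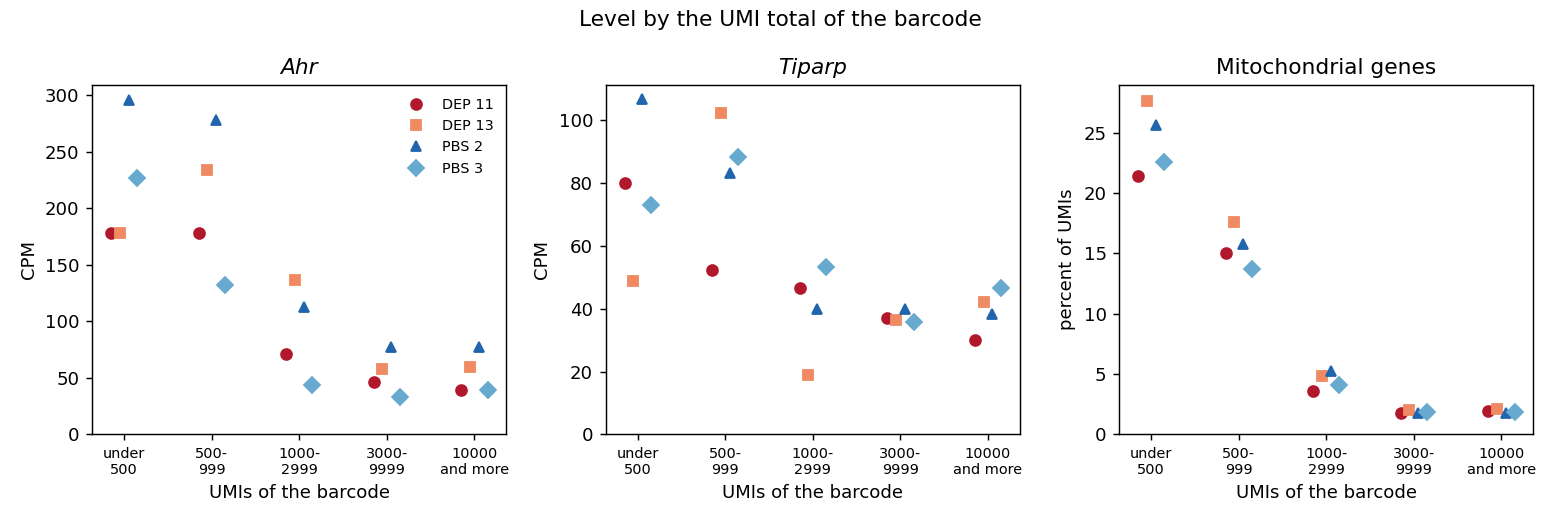
Levels of Ahr and Tiparp (CPM) and the share of UMIs in mitochondrial genes (percent) by the UMI total of the barcode, each point 1 mouse; lymphoid-marked barcodes are left out. Ahr stood at 132 CPM or above in every mouse below 1000 UMIs, and at 77.3 CPM or below in every mouse from 3000 UMIs.

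Arnt (chromosome 3, 95434388 to 95497240, plus strand), the obligate partner with which the receptor binds DNA, gave 425 UMIs. Its level was 17.1 CPM in DEP 11 and 15.1 CPM in DEP 13, beside 15.5 CPM in PBS 2 and 12.4 CPM in PBS 3. The spread over mice was close to that of counting, with a coefficient of variation of 12.8% against 10.3% from counting alone. In Ly6c2-high barcodes Arnt rested on 34 UMIs, 14 and 7 in the DEP mice (27.7 and 30.2 CPM) and 7 and 6 in the PBS mice (14.2 and 13.8 CPM). In C1qa-high barcodes it was 14.8, 12.6, 15.7 and 12.4 CPM in DEP 11, DEP 13, PBS 2 and PBS 3. The log2 difference, C1qa-high minus Ly6c2-high, was -0.50 (SE 0.30, edgeR adjusted p = 0.233). The thinned share was lower in C1qa-high barcodes in 4 of 4 mice, 1.36 ± 0.219% against 2.30 ± 0.624% (n = 4, exact sign-flip permutation p = 0.125, the smallest possible). Unthinned, the share was higher in C1qa-high barcodes in 2 of 4 mice. Over all alternatives the mean difference in share ran from -1.15 to -0.043 percentage points.

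Tiparp (chromosome 3, 65528410 to 65555518, plus strand) encodes an enzyme that modifies the receptor with ADP-ribose and dampens it. It gave 1083 UMIs, with levels of 36.1 CPM in DEP 11 and 36.9 CPM in DEP 13, beside 39.3 CPM in PBS 2 and 38.5 CPM in PBS 3. The coefficient of variation over mice was 3.87%, below the 6.45% from counting alone. It had at least 1 UMI in 17.7% of the myeloid barcodes. Its mean level was 37.6 ± 1.25 CPM in C1qa-high and 37.5 ± 17.1 CPM in Ly6c2-high barcodes (n = 4), where the values ran from 17.3 CPM (4 UMIs) in DEP 13 to 58.8 CPM (29 UMIs) in PBS 2. The log2 difference between the ranges was -0.07 (SE 0.21, edgeR adjusted p = 0.851).

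Ahrr (chromosome 13, 74211118 to 74292331, minus strand), the repressor that competes with the receptor for ARNT, was found mostly in C1qa-high barcodes. Of its 134 UMIs in myeloid barcodes, 128 lay in the C1qa-high range and 1 in the Ly6c2-high range. In C1qa-high barcodes its level was 7.52 CPM in DEP 11 (37 UMIs), 7.47 in DEP 13 (22 UMIs), 3.83 in PBS 2 (30 UMIs) and 5.81 in PBS 3 (39 UMIs). In Ly6c2-high barcodes 3 mice had no UMI and PBS 2 had 1 (2.03 CPM). The groups of values did not overlap, and Ahrr was higher in C1qa-high barcodes in 4 of 4 mice. Such a separation held for 25.9% of the 6955 genes tested, a set of better detected genes without Ahrr.

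At the rate of the C1qa-high barcodes, the 1664585 UMIs of the Ly6c2-high range would have held 9.50 Ahrr UMIs. The pooled ratio of Ly6c2-high to C1qa-high was 0.105, with a 95% exact interval of 0.00264 to 0.597 that covers counting error only. Ahrr had a UMI in under 5% of barcodes, so the gene filter of the study's methods left it out of the fit. Without that filter the log2 difference was 3.31 (SE 0.99, edgeR adjusted p = 0.00842), in a fit that called 2077 of 16131 genes (12.9%). That value rests on 1 UMI in the Ly6c2-high range and depends on the prior count of the fit. The median of all genes moved to 0.41 in the fit without a filter. The paired permutation test on CPM gave p = 0.125 (exact, n = 4), the smallest it can give.

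The Ahrr level differed along C1qa content. It was 1.01 CPM (95% interval 0.329 to 2.36, 5 UMIs) below 10 C1qa UMIs per 10000 and 1.71 CPM (0.783 to 3.25, 9 UMIs) from 10 to below 30. It was 6.51 CPM (4.98 to 8.36, 61 UMIs) from 30 to below 60 and 6.59 CPM (5.01 to 8.50, 59 UMIs) at 60 and more. In each of the 4 mice the level from 30 to below 60 was above that below 10. At 60 and more, PBS 2 was at 2.76 CPM (10 UMIs), below its own 2.80 CPM (3 UMIs) in barcodes below 10 and its 6.12 CPM from 30 to below 60, while the other 3 mice were at 6.89 to 10.6 CPM.

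Depth moved with these levels, with medians of 4634, 4809, 7106 and 7399 UMIs from the lowest C1qa level to the highest. The Ahrr level differed between depths without a common direction over all of them. It was 5.53, 5.25, 2.81 and 3.77 CPM in DEP 11, DEP 13, PBS 2 and PBS 3 from 3000 to below 10000 UMIs, and 7.15, 8.24, 4.89 and 6.44 CPM in the same order at 10000 UMIs and more. From 1000 to below 3000 UMIs it was 0 CPM in DEP 11 and PBS 2, 9.40 CPM in DEP 13 (2 UMIs) and 12.1 CPM in PBS 3 (5 UMIs), so that among barcodes of at least 1000 UMIs the latter mice were highest in the shallowest, on few UMIs. Within the range from 3000 to below 10000 UMIs, the 4 mice pooled had 1.05 CPM (95% interval 0.478 to 1.99, 9 UMIs) below 30 C1qa UMIs per 10000 and 6.60 CPM (5.16 to 8.31, 72 UMIs) at 30 and more. Median depth still differed there, at 5194.5 and 6773 UMIs. From 1000 to below 3000 UMIs the values were 4.53 CPM (1.23 to 11.6, 4 UMIs) and 6.40 CPM (1.32 to 18.7, 3 UMIs), and at 10000 UMIs and more 1.42 CPM (0.0360 to 7.93, 1 UMI) and 6.47 CPM (4.72 to 8.66, 45 UMIs). The intervals below and from 30 C1qa UMIs thus overlapped at both of these depths and not at the depth between them. The split at 30 lies where the Ahrr level of the same barcodes had already been seen to differ, so these values are no separate support. The part of depth in the Ahrr difference was not tested. The thinned share of barcodes with an Ahrr UMI was 0.557 ± 0.166% in C1qa-high and 0.0363 ± 0.0726% in Ly6c2-high barcodes (n = 4, exact sign-flip permutation p = 0.125). In lymphoid-marked barcodes, with a median depth of 7325 UMIs or more, 6 UMIs gave 2.08 CPM and 0.196% after thinning. For Ahr, Arnt and Tiparp the pooled intervals at 10 to below 30 and at 30 to below 60 overlapped, and for Ahrr they did not. These levels are those between which the Ahrr values were seen to differ. The intervals pool the 4 mice and cover counting error only, and the share of all genes that separate there was not determined.

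**Figure D3:**
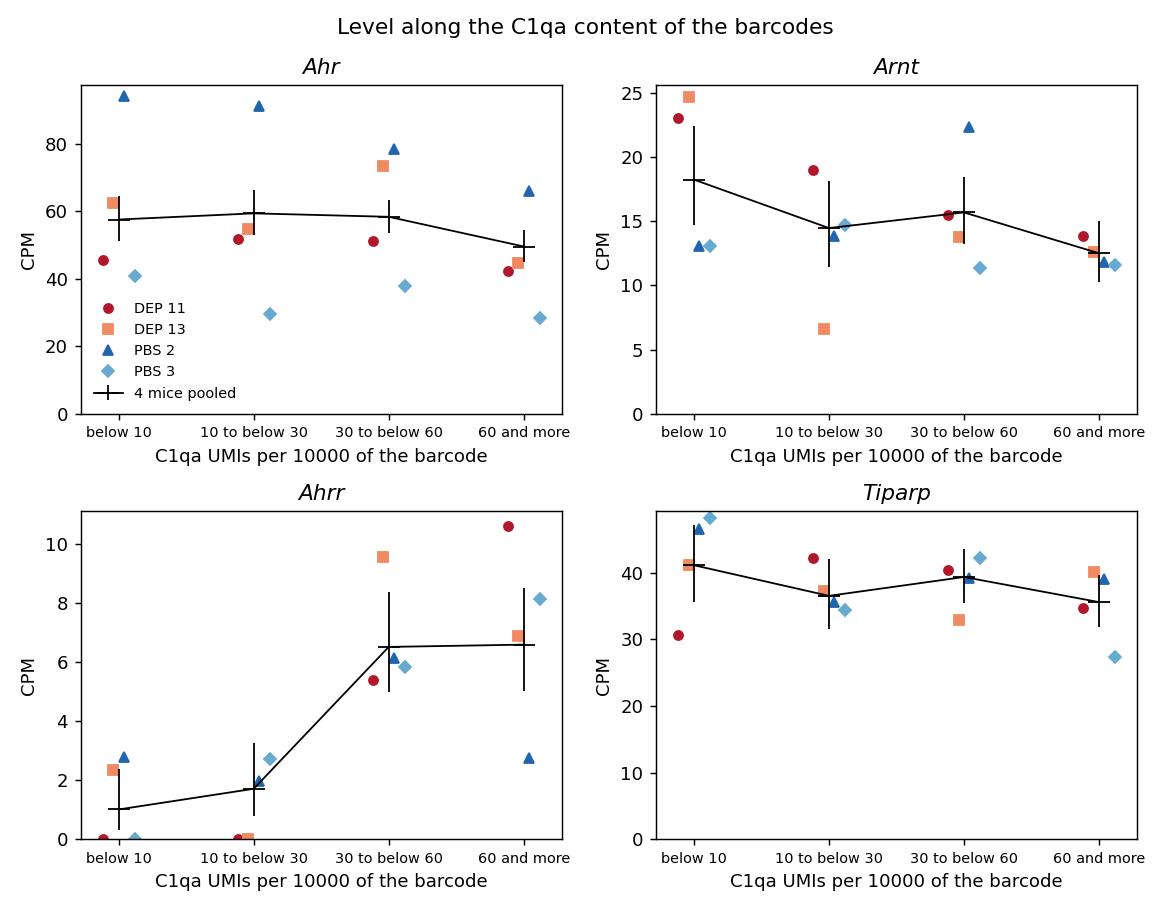
Level (CPM) of Ahr, Arnt, Ahrr and Tiparp against the C1qa UMIs per 10000 of the barcode, with a coloured point per mouse and, in black, the 4 mice pooled with a 95% exact Poisson interval. Pooled Ahrr went from 1.01 to 6.59 CPM, and pooled Ahr lay between 49.6 and 59.4 CPM. The pooled Ahr values mix mice that differ in Ahr level and enter the C1qa levels in unlike shares.

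Of the detoxifying targets, both cytochromes were absent from the counts. Cyp1a1 (chromosome 9, 57687928 to 57703824, plus strand) and Cyp1b1 (chromosome 17, 79701537 to 79715061, minus strand) had 0 UMIs in each of the 4 mice, in all 6954 barcodes and 32261816 UMIs. A count of 0 of 4505 myeloid barcodes allows a share with a UMI of up to 0.0666%, and the limits per mouse were 0.204 to 0.478%. In level, 3 UMIs would have been 0.0930 CPM over all barcodes. At this depth neither gene was detectable in DEP or in PBS mice.

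Nqo1 (chromosome 8, 107388225 to 107403206, minus strand), a quinone reductase that also answers to the oxidative stress factor NRF2, was close to that limit. It gave 4 UMIs in DEP 11, 7 in PBS 3 and none in DEP 13 or PBS 2, from 9 myeloid barcodes in all. Each group thus held 1 mouse with UMIs and 1 without. No Nqo1 UMI lay in the Ly6c2-high range and 8 lay in the C1qa-high range, where 0.594 would have been the number in the Ly6c2-high range at an equal rate.

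The comparison of DEP with PBS mice addressed whether particles that carry receptor ligands changed these genes in colon myeloid cells. None of the members tested passed the threshold. Over all myeloid barcodes 0 of 6539 genes were called (0%, edgeR quasi-likelihood test, false discovery rate of 5%), while 170 had an unadjusted p under 0.05 (2.6%). On the same counts limma voom called 0, DESeq2 4 and edgeR's likelihood ratio test 11. Fits that left out 1 mouse called 27 genes without DEP 11, 16 without DEP 13, 23 without PBS 2 and 11 without PBS 3, and no member tested was among these calls. In such a fit 1 arm is a single mouse, assumed to vary as the 2 mice of the other arm do, so the fits say little about the members. In simulated counts of this comparison 100 genes were changed by 1 and 100 by 2 on the log2 scale. The fit recovered 76% of the former, with 17 false calls among the 6539 genes. So many changed genes ease the false discovery threshold, so the 76% does not apply to the real counts, where 0 genes were called. There the heat shock gene Hspb1, at a log2 difference of -2.23, had an edgeR adjusted p of 0.875.

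The log2 difference, DEP minus PBS, was -0.05 (SE 0.32) for Ahr, 0.21 (SE 0.21) for Arnt and -0.09 (SE 0.16) for Tiparp, all with an edgeR adjusted p of 0.999. Mean Ahr was 54.3 ± 11.3 CPM in DEP and 56.4 ± 30.9 CPM in PBS mice (n = 2 each). Its sign turned with the mouse left out: the log2 difference was 0.61 without PBS 2 and -0.50 without PBS 3, and 0.19 without DEP 11 and -0.30 without DEP 13. The direction for Ahr thus rested on single mice of either group. After thinning, the share with an Ahr UMI was 5.51 ± 1.09% in DEP and 5.67 ± 3.10% in PBS mice (n = 2 each, exact permutation p = 1, smallest possible 0.333).

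Tiparp was 36.5 ± 0.553 CPM in DEP and 38.9 ± 0.553 CPM in PBS mice (n = 2 each), so that the mice of the groups did not overlap, but the distance of 2.40 CPM was within the counting intervals of the single mice. Values of the mice did not overlap for 26.9% of the genes tested, so such a separation was common. In C1qa-high barcodes the log2 difference of Tiparp was -0.04 (SE 0.17, edgeR adjusted p = 1) and its groups overlapped.

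Within the ranges no member tested passed the threshold either. In C1qa-high barcodes, where 0 of 6826 genes were called (0%) and 257 had an unadjusted p under 0.05 (3.77%), Ahr differed by 0.01 (SE 0.32) and Arnt by -0.01 (SE 0.23) on the log2 scale. limma voom called 0, DESeq2 5 and the likelihood ratio test 16 genes there. In Ly6c2-high barcodes, where 1 of 5533 genes was called (0.0181%) and 189 had an unadjusted p under 0.05 (3.42%), the log2 difference was -0.47 (SE 0.48) for Ahr, -0.57 (SE 0.45) for Tiparp and 1.02 (SE 0.54) for Arnt. Arnt, at an unadjusted edgeR p of 0.0728 and an adjusted p of 1, rested on 6 to 14 UMIs per mouse. Its groups of mice did not overlap there, as held for 30.4% of the genes tested. The difference of the 2 effects, tested as an interaction, was 0.45 (SE 0.36) for Ahr, -0.999 (SE 0.58) for Arnt and 0.54 (SE 0.41) for Tiparp, with edgeR adjusted p-values of 0.968, 0.911 and 0.965. The values of Ahr and Tiparp moved with single mice. In Ly6c2-high barcodes the log2 difference of Ahr ran from -1.07 to 0.69 with a mouse left out. That of Tiparp was -1.38 without DEP 11 and -0.17 without PBS 2. The interaction of Tiparp was 1.38 without DEP 11 and 0.11 without PBS 2. The interaction was called for 17 of 6955 genes (0.244%), 11 of them with a higher effect in C1qa-high barcodes (0.158%) and 6 with a lower one (0.0863%), and 386 had an unadjusted p under 0.05 (5.55%). No member was among the calls.

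**Figure D4:**
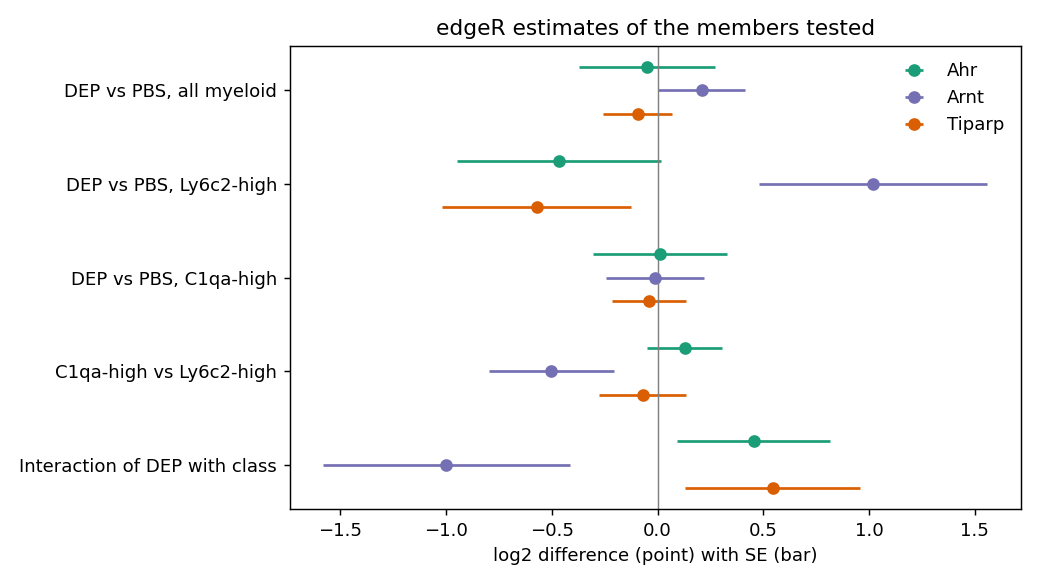
edgeR log2 differences of Ahr, Arnt and Tiparp (horizontal axis, point) with their SE (bar) in the 3 fits of DEP minus PBS, the fit of C1qa-high minus Ly6c2-high barcodes and the interaction. The point farthest to the right is Arnt in Ly6c2-high barcodes, at 1.02.

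Ahrr was higher in both DEP than in both PBS mice. Over all myeloid barcodes its level was 5.50 CPM in DEP 11 and 6.23 CPM in DEP 13, beside 3.58 CPM in PBS 2 and 4.62 CPM in PBS 3. The mean of 5.87 ± 0.521 CPM in DEP and 4.10 ± 0.735 CPM in PBS mice (n = 2 each) gave an exact permutation p of 0.333, the smallest possible. In C1qa-high barcodes the means were 7.49 ± 0.0344 and 4.82 ± 1.40 CPM. Their difference of 2.67 CPM became 1.68 to 3.67 CPM with a mouse left out. The groups of mice did not overlap, as held for 30% of the genes tested in that range, a set of better detected genes without Ahrr. Without a gene filter the log2 difference in that range was 0.62 (SE 0.34, edgeR adjusted p = 0.991). Each value rests on 22 to 39 UMIs. The highest mouse, DEP 11, exceeded the lowest, PBS 2, by 1.96-fold (95% counting interval 1.18 to 3.29), and the intervals of DEP 13 and PBS 3 overlapped. The expected share with an Ahrr UMI after thinning was 0.630 ± 0.0393% in DEP and 0.484 ± 0.246% in PBS mice in that range (n = 2 each, exact permutation p = 1), with mice of the groups overlapping. A single random draw of 1000 UMIs per barcode, which left 3 to 12 Ahrr UMIs per mouse, gave a difference of -2.89 CPM. Beside this, the C1qa-high range held 65.8 and 68.9% of the myeloid barcodes in DEP mice and 75.5 and 72.3% in PBS mice. The range that held most Ahrr UMIs was thus a smaller share of the barcodes in DEP than in PBS mice. The part of these shares in the Ahrr difference was not tested.

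The wider pathway was followed with a list of 43 genes: chaperones of the receptor, relatives of ARNT, enzymes that make or clear its tryptophan-derived ligands, cofactors, and further targets. In the myeloid barcodes 4 of them had no UMI: the hepatic target Cyp1a2, the ARNT relative Arnt2 and the ligand-making Ido2 and Tdo2. A further 9 had 1 to 20 UMIs, and 24 passed the gene filter.

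Between the ranges, 4 of these 24 were higher and 4 lower in C1qa-high barcodes and 16 were not called, beside 13.1% of all genes called higher and 15.3% called lower. The median log2 difference of the 24 was 0.13, against 0.02 over all genes tested. Mgst1, a microsomal glutathione transferase, was lower in C1qa-high barcodes, at 47.5 ± 9.77 CPM against 389 ± 31.7 CPM (log2 difference -2.98, SE 0.10, edgeR adjusted p = 2.44e-18). Entpd1 (CD39), which breaks down extracellular ATP, was higher, at 51.0 ± 11.01 against 16.4 ± 3.98 CPM (log2 difference 1.66, SE 0.24, edgeR adjusted p = 3.31e-06). Nfe2l2, the gene of NRF2, was higher by 0.49 (SE 0.09, edgeR adjusted p = 0.000229) and the nuclear corepressor Nrip1 by 1.22 (SE 0.27, edgeR adjusted p = 0.000915). The transferase, CD39 and NRF2 stand in the list as targets, and they moved in both directions. The summed dissociation genes (17 immediate early and heat shock genes) ran from 12237 to 17574 CPM in C1qa-high and from 13797 to 22649 CPM in Ly6c2-high barcodes. Of these 17 genes, 4 were higher and 9 lower in C1qa-high barcodes, and their part in the results was not tested.

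With DEP none of the 24 pathway genes was called, and 11 had a positive log2 difference. The median was -0.04, against -0.01 over all genes tested. The smallest unadjusted p-values were those of Hmox1, heme oxygenase (log2 difference -0.96, SE 0.28), Slc7a11, a cystine transporter (0.51, SE 0.17), the receptor's chaperone Hsp90aa1 (-0.88, SE 0.31) and the kynurenine hydroxylase Kmo (0.66, SE 0.26), each with an edgeR adjusted p of 0.999. Hmox1 stood at 147 ± 50.7 CPM in DEP and 284 ± 71.7 CPM in PBS mice, Slc7a11 at 40.5 ± 2.86 and 28.5 ± 0.630 CPM (n = 2 each). Hsp90aa1 is a heat shock gene, and the summed dissociation genes were 14880 and 12697 CPM in DEP mice and 18353 and 15983 CPM in PBS mice. Of these 17 genes 1 had a positive log2 difference and none was called, with a median of -0.31. Their part in the differences above was not tested. For the interaction no pathway gene was called either, and the smallest p-values, for Rb1, Kmo, Mgst1 and Hsp90aa1, had an edgeR adjusted p of 0.899.

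For the 3 members past the gene filter, the genes most alike in level over 16 sums (4 ranges in each of 4 mice) were sought by Pearson's r of log2(CPM + 1) among 6948 genes. Ahr was like Tm9sf3 (r = 0.90) and Ybx1 (0.85). Tiparp was most like Isy1 (0.86), Brd9 (0.86) and Malt1 (0.84), and Arnt like Cul1, Ubac2 and Ilkap (0.97 each). For Arnt, 1 sum, DEP 13 in the range high in both, held 13 barcodes and no Arnt UMI. Among themselves the members were less alike, with r = 0.48 for Ahr and Arnt, 0.36 for Ahr and Tiparp and 0.28 for Arnt and Tiparp. The 16 sums share 4 mice and differ in depth, so these values are descriptions.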

How the data were processed

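Single cells of 4 mice were captured in 1 droplet well per mouse (10x, 3' chemistry, version 2). The authors deposited raw UMI counts per gene and barcode, made with Cell Ranger and STAR 2.6.1a on mm10 per the labels, and the methods state that wells were joined without downsampling. The study's methods state far fewer kept cells than the 4623 barcodes that its stated filters leave here, and whether this table is the one the study filtered was not settled. Each barcode was assigned to its mouse by the suffix of its name. Gene symbols came from GENCODE for 28416 of 28692 identifiers. Barcodes with at least 1000 UMIs were kept, and those with at least 3 UMIs and at least 3 per 10000 over 15 lymphoid markers were set aside. Doublets were not called.

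UMIs were summed per mouse and range and fitted with edgeR 4.0.16 (quasi-likelihood, TMM, Benjamini-Hochberg at 5%), for genes that exceeded 1 CPM in at least 2 sums and were detected in 5% of barcodes or more. Fits over both ranges had the mouse as a block (8 sums). The SE of a log2 difference was not estimated by the fit. It is the absolute log2 difference over the square root of its quasi-likelihood F value, and is rough at low counts. Shares were compared with exact two-sided permutation tests on values thinned to 1000 UMIs (expected values). Intervals are 95% exact and cover counting error only, and the limit for a count of 0 is 3 counts. The fits were tested on simulated counts: for DEP against PBS over 6539 genes, 76% of genes changed by 1 and 100% of those changed by 2 on the log2 scale were recovered with 17 false calls, and for C1qa-high against Ly6c2-high barcodes over 6955 genes 63% and 93% with 7 false calls. Each simulation changed 100 genes by 1 and 100 by 2, which eases the threshold where the real counts hold fewer changes. Alternatives used DESeq2 1.42.0, limma 3.58.1, other filters and other normalizations, and leaving out barcodes shared between mice was added after seeing the data, as was the Ahrr level by C1qa within a range of depth. Members and lists were chosen with earlier results of these data known. The text names all 7 members, the 4 pathway genes of smallest p in each of 3 comparisons, and the 3 genes most like each member, of which 1 is not reported here. Each mouse was 1 well, so mouse and well cannot be told apart.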

Additional observations from a re-analysis of the deposited data

How the results depend on the processing

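No paired analysis was possible because DEP and PBS mice share no replicate numbers; the comparisons of ranges had the mouse as a block throughout. With 2 mice in a group and 0 to 45 UMIs per mouse for each member in Ly6c2-high barcodes, depth limited the members' values there, and Ahrr and Nqo1 throughout. No member passed the threshold in any edgeR, DESeq2 or limma fit except Ahrr between the ranges in fits without the study's gene filter, and the cause of the changes below was not tested.

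Counts of called genes stayed within 1.5 times for 63 of 103 alternatives, 22 were higher and 18 lower. For DEP against PBS in all myeloid barcodes (0 called), the count was 1 without the top 5% of barcodes by UMIs, 11 with the likelihood ratio test, 4 with DESeq2, 78 with no gene filter and 11 to 27 with a mouse left out. In Ly6c2-high barcodes (1 called) it was 3 with lymphoid-marked barcodes kept, 0 after thinning, 6 with lower and 2 with higher range levels, 0 with ranges set by presence, 6 with no gene filter, 0 with filterByExpr and 0 to 12 with a mouse left out. In C1qa-high barcodes (0 called) it was 1 without the top 5% of barcodes, 1 with higher range levels, 16 with the likelihood ratio test, 5 with DESeq2, 93 with no gene filter and 0 to 28 with a mouse left out. Between the ranges (1979 called) it was 650 after thinning and 1190 with lower range levels. For the interaction (17 called) it was 6 with the study's cell filters, 9 from 500 UMIs, 5 without the top 5% of barcodes, 4 after thinning, 8 with lower and 4 with higher range levels, 3 with ranges by presence, 1 with DESeq2, 3 with limma voom, 11 with RLE, 11 with library size alone and 9 to 44 with a mouse left out.

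Of 298 log2 differences of members under alternatives, 31 changed sign, none of them past the threshold. For DEP against PBS, Ahr in all myeloid barcodes became 0.12 after thinning and 0.020 with limma voom, and -0.50 to 0.61 with a mouse left out. In Ly6c2-high barcodes Ahr became 0.14 with lower range levels and -1.07 to 0.69 with a mouse left out. In C1qa-high barcodes Ahr became -0.025 with the study's cell filters, -0.032 from 2000 UMIs, -0.019 with library size alone, -0.024 with no gene filter and -0.44 to 0.69 with a mouse left out. Arnt there became 0.024 with the study's cell filters, 0.034 from 500 UMIs, 0.018 from 2000 UMIs, 0.050 with lymphoid-marked barcodes, 0.0037 without the top 5% of barcodes, 0.026 with lower range levels, 0.094 with ranges by presence, 0.0010 with limma voom and -0.13 to 0.13 with a mouse left out. Tiparp became 0.085 without the top 5% of barcodes. Between the ranges Tiparp became 0.051 with higher range levels, 0.043 with ranges by presence and -0.19 to 0.22 with a mouse left out, and Ahr became -0.20 with ranges by presence. Over all alternatives Ahr between the ranges ran from -0.20 to 0.72. The interaction of Ahr became -0.43 after thinning, -0.17 with lower range levels and -0.015 to 0.66 with a mouse left out. Over all alternatives it ran from -0.43 to 0.89.

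Of 80 shares, 16 changed sign, and the permutation tests could not pass 0.05 in any. In percentage points, DEP minus PBS for Ahr was -2.35 to 2.04 with a mouse left out; for Arnt it was -0.0080 unthinned and -0.039 to 0.341 with a mouse left out; for Nqo1 it was -0.00043 with lymphoid-marked barcodes and -0.0220 to 0.0265 with a mouse left out. C1qa-high minus Ly6c2-high for Ahr was 7.06 unthinned, 1.62 with higher range levels and -0.956 to 0.352 with a mouse left out; for Tiparp it was 5.00 unthinned, 0.469 with higher range levels and -0.553 to 0.524 with a mouse left out; for Nqo1 it was -0.0375 with lower range levels. Of 78 CPM differences of Ahrr and Nqo1, 4 moved by more than the spread between mice: DEP minus PBS after thinning became -2.43 (all myeloid barcodes) and -2.89 (C1qa-high) for Ahrr and 0.429 for Nqo1, and C1qa-high minus Ly6c2-high of Nqo1 became -0.447 with lower range levels.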
